A study of Caenorhabditis elegans with 12 samples.

Results

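Alternative acceptors 9 nt apart are pairs of 3′ splice sites that share 1 donor (5′ splice site) and lie 9 nt from each other, so that the choice between them adds or removes 9 nt of the exon. They were taken by rule from the authors' catalogue of introns found in the libraries: every alternative 3′ splice site event whose forms differ in intron length by exactly 9 nt. The rule found 573 pairs among the 5267 events of the catalogue, which is 16.5% of its 3483 alternative 3′ events, and only the distance of 6 nt was more common, with 793 pairs. The libraries are from whole Caenorhabditis elegans L3 larvae, raised from bleached embryos for 34 h at 20 °C, with rRNA removed and paired 150 nt reads. They form 4 groups of 3: wild-type N2 (library set az02), strain DG3430 carrying sacy-1(tn1385), a further N2 set (az04), and strain SZ454 carrying mog-5(az192). Each mutant strain is 1 line, and each was set against the N2 libraries whose numbers adjoin its own. The series asks how the spliceosomal helicases SACY-1 and MOG-5 bear on the choice of 3′ splice site.

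An intron ends at an acceptor whose last bases are AG, and in C. elegans a short, strongly conserved pyrimidine-rich stretch directly before that AG is bound by the splicing factor U2AF. When more than 1 AG lies close to the branch point, the spliceosome joins the exons at only 1 of them, at the second chemical step of splicing. SACY-1 is the worm counterpart of the human DEAD-box helicase DDX41, and MOG-5 is the counterpart of yeast Prp22 and human DHX8, a DEAH-box helicase that in yeast releases the spliced mRNA and checks the choice of 3′ splice site. The upstream acceptor of a pair is the one nearer the donor and, where both acceptors share a branch point, the one nearer to it. Its use gives the shorter intron and an mRNA that is 9 nt, or 3 codons, longer, and leaves the downstream reading frame as it was when the pair lies in coding sequence.

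Upstream use below is the share of an event's measured splicing, in percent, that went to the upstream acceptor, as deposited by the authors. It is a share within 1 intron and says nothing of how much the gene was transcribed. Read numbers are not given beside these shares, so the depth behind each is unknown. The lowest value on the deposited scale is 0.1% and its highest value mirrors it; the sources used here do not say how the authors set these ends. In whole larvae, a change of use within cells and a change in the mix of cells cannot be told apart.

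The 573 pairs lay at 545 separate places and used 568 different donors. They were spread over all 6 chromosomes, with 102 on I, 98 on II, 112 on III, 85 on IV, 72 on V and 104 on X, and 290 were on the plus strand. The longer intron of a pair ranged from 43 to 8933 nt with a median of 72 nt, against 87 nt over all alternative 3′ events. It was under 70 nt in 284 pairs and 70 nt or longer in 289. A share of 49.6% of the pairs thus had the short introns typical of this worm, against 45% of all alternative 3′ events. All 12 libraries listed 559 of the pairs, and 14 were missing from 1 or more.

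In wild-type larvae the downstream acceptor was the main one at most of these pairs. Of the 566 pairs listed in all 3 N2 az02 libraries, 347 had a mean upstream use under 15%, 116 lay between 15% and 50%, and 103 were over 50%, of which 49 were over 85%. In N2 az04 the same counts were 289, 158 and 124 of 571, with 51 over 85%. Over the 559 pairs listed everywhere, mean upstream use was 22.2%, 23.6% and 22.4% in the 3 N2 az02 libraries against 35.7%, 36.2% and 35.1% in sacy-1. The N2 az04 libraries had 27.8%, 24.7% and 26.9%, and those of mog-5 had 31.5%, 34.9% and 30.6%. All 3 libraries of each mutant lay above all 6 N2 libraries, and the sacy-1 libraries lay above the mog-5 libraries.

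As group means these were 35.7% ± 0.53 for sacy-1 against 22.7% ± 0.72 for N2 az02, and 32.3% ± 2.25 for mog-5 against 26.4% ± 1.59 for N2 az04 (SD, n = 3 libraries each). Sacy-1 stood 12.92 percentage points above its N2 set and mog-5 5.87 points above its own. The N2 sets themselves differed by 3.71 points, with az04 higher, and sacy-1 stood 3.33 points above mog-5 with no N2 subtracted. These means are over pairs chosen with earlier results known and carry no test. The pairs at the lowest value of 0.1% numbered 146, 114 and 129 in the N2 az02 libraries but 30, 13 and 21 in those of sacy-1. In the N2 az04 libraries there were 91, 78 and 73 such pairs, and in the mog-5 libraries 41, 27 and 45. Of 778 pairs 6 nt apart, 132, 89 and 134 were at 0.1% in N2 az02 and 38, 21 and 27 in sacy-1. Of 127 pairs 10 nt apart, 64, 54 and 70 were there in N2 az02 and 12, 9 and 10 in sacy-1. The lower counts in sacy-1 are thus not particular to pairs 9 nt apart. The part of read depth in such counts is unknown.

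**Figure D1:**
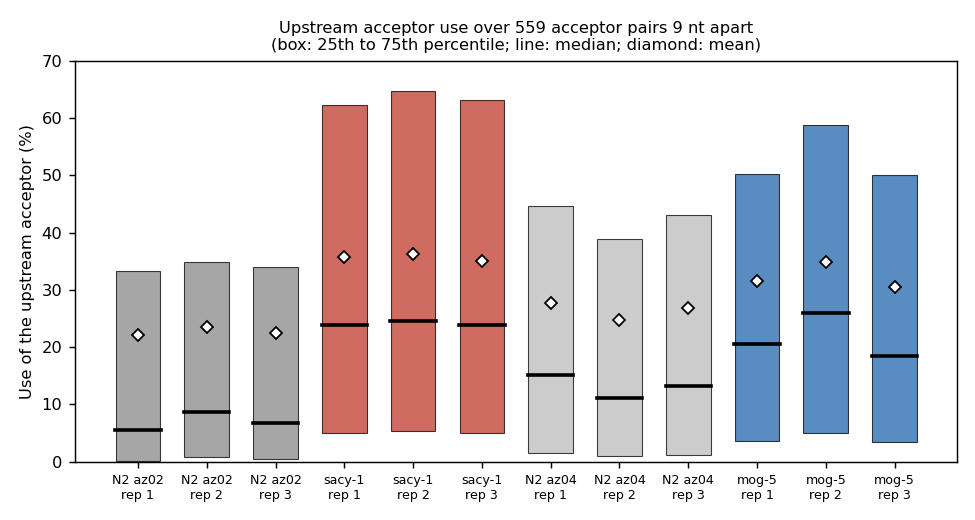
Upstream acceptor use (%) in each of the 12 libraries over the 559 pairs listed in all of them; boxes run from the 25th to the 75th percentile, the line is the median and the diamond the mean. The means of the 3 sacy-1 libraries lie between 35.1% and 36.2% and those of their N2 az02 libraries between 22.2% and 23.6%; the mog-5 means lie between 30.6% and 34.9% and those of N2 az04 between 24.7% and 27.8%.

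In sacy-1(tn1385) the upstream acceptor rose at 131 of the 562 pairs tested and the downstream acceptor at 0, called at a limma adjusted p under 0.05 and a difference of at least 15 points. That is 23.3% of the pairs, where 6.17% of all 5069 events tested were called towards the included form and 9.2% of all 3370 alternative 3′ events towards the upstream acceptor, with 0.089% of the latter called downstream. At an unadjusted p under 0.05, 284 pairs lay higher in sacy-1 and 3 lower, against 27.5% and 1.54% of all alternative 3′ events. In 329 pairs (58.5%) all 3 sacy-1 libraries lay above all 3 N2 az02 libraries, a pattern found in 25.4% of all events and 35% of all alternative 3′ events, and in 4 pairs they lay below, against 2.31% of alternative 3′ events. The median difference over the 562 pairs was 5.89 points, against 1.94 over all alternative 3′ events and 1.02 over all events.

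The called pairs changed by 15.1 to 75.2 points, with a median of 35.2. Of the 131, 91 changed by at least 25 points and 27 by at least 50. Their median upstream use in N2 az02 was 13.4%, against 55.3% in sacy-1. In 57 of the 562 pairs the main acceptor switched, with all 3 N2 az02 libraries under 50% and all 3 sacy-1 libraries over it, and in 0 it switched the other way. Over all 3370 alternative 3′ events 120 switched towards upstream and 4 the other way, and over all 5069 events 122 switched towards the included form and 6 away from it.

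**Figure D2:**
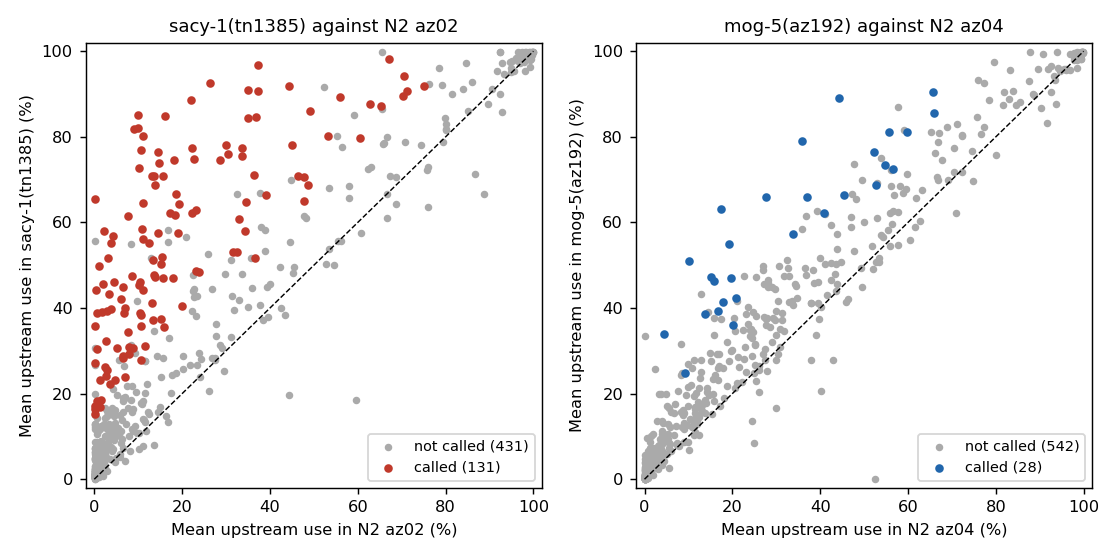
Mean upstream use (%) of each pair in a mutant (vertical axis) against its N2 set (horizontal axis); each point is 1 pair, coloured points were called and the dashed line marks equal use. All 131 coloured points in sacy-1 and all 28 in mog-5 lie above the line.

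The pair with the largest called change in both mutants was A3.00306 on chromosome I, minus strand, in an intron of 43 or 52 nt that starts at the donor 7539298 and ends before the acceptors 7539255 and 7539246 (1-based positions in build ce10; a donor is given by the first base of the intron and an acceptor by the first base of the exon after it). The N2 az02 libraries used the upstream acceptor at 5.03%, 14.5% and 10.4% and the sacy-1 libraries at 88.3%, 85.8% and 81.4%. The N2 az04 libraries were at 19.2%, 14.3% and 18.7% and the mog-5 libraries at 60.7%, 66.6% and 62.1%. Every mutant library was above every N2 library by a wide gap, and sacy-1 was above mog-5. The sacy-1 change was 75.2 points (95% interval 66.9 to 83.4, limma adjusted p = 0.000514) and the mog-5 change 45.8 points (40 to 51.5, adjusted p = 0.00472).

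A3.01379 on chromosome III, plus strand, has acceptors 5118573 and 5118582 after an intron of 46 or 55 nt. Its use was 7.14%, 9.92% and 9.88% in N2 az02 against 80.5%, 80.9% and 83.9% in sacy-1, a change of 72.8 points (limma adjusted p = 8.08e-05). The N2 az04 libraries gave 29.9%, 20.6% and 31.3% and the mog-5 libraries 47.0%, 50.7% and 38.9%, and the mog-5 difference of 18.2 points was not called (adjusted p = 0.156). The wild-type sets did not overlap here, with az04 the higher by 18.3 points.

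Long introns also held large changes. A3.01058, on chromosome II, minus strand, with acceptors 12209775 and 12209766, ends an intron of 973 or 982 nt. Upstream use stood at 10.3%, 12.4% and 7.23% in N2 az02 against 82.6%, 81.8% and 81.4% in sacy-1, and at 25.9%, 14.2% and 17.4% in N2 az04 against 54.2%, 59.8% and 51.1% in mog-5. Both mutants stood apart from their N2 libraries, by 72.0 points in sacy-1 (limma adjusted p = 0.000107) and 35.8 in mog-5 (adjusted p = 0.0296).

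Of the 10 pairs named for the largest sacy-1 changes, the other 7 rose by 62.5 to 69.1 points. They were A3.02100 (69.1 points, IV), A3.03359 (68.9, X), A3.00035 (66.5, I), A3.02909 (66.2, V), A3.01054 (66.2, II), A3.01358 (65.3, III) and A3.01880 (62.5, IV). Of the 10, A3.02909 differed most between the wild-type sets: it was 16.7%, 20% and 42.3% in N2 az02 and 78.2%, 57.6% and 60% in N2 az04, against 96.5%, 94.4% and 86.7% in sacy-1. Set against N2 az04 its sacy-1 difference was 27.3 points and was not called. A3.01358 stood at 0.1% in all 3 N2 az02 libraries and at 58.8%, 65.2% and 72.2% in sacy-1.

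**Figure D3:**
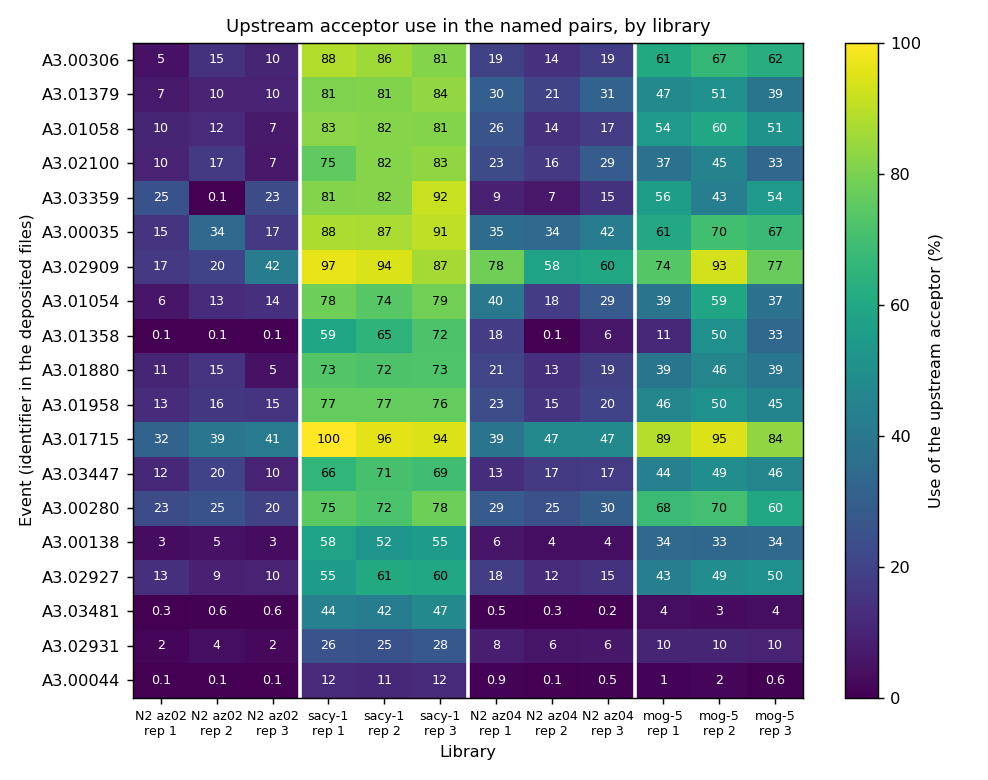
Upstream acceptor use (%) in each library for the 19 pairs named for their change in a mutant or for the difference between both mutants; rows are pairs, columns are libraries grouped by strain, and the number in each cell is the value. The sacy-1 columns are the highest of the 4 groups in most rows, the mog-5 columns are mostly between sacy-1 and N2, and A3.03481 is high in sacy-1 alone.

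In mog-5(az192) the upstream acceptor rose at 28 of 570 pairs tested and the downstream acceptor at 0, by the same rule. That is 4.91% of the pairs, against 1.3% of all 5172 events towards the included form and 1.92% of all alternative 3′ events upstream, with 0% downstream. At an unadjusted p under 0.05, 167 pairs lay higher and 1 lower, against 18.7% and 0.932% of alternative 3′ events. In 202 pairs (35.4%) all 3 mog-5 libraries lay above all 3 N2 az04 libraries, against 18.7% of all events and 24.8% of all alternative 3′ events, and in 2 pairs they lay below, against 1.49%.

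The median difference over the 570 pairs was 2.97 points, against 1.02 over all alternative 3′ events. The 28 called pairs changed by 15.5 to 45.8 points, with a median of 24.4, and 13 of them by at least 25. Their median use in N2 az04 was 30.8%, against 62.7% in mog-5, and 15 of the 570 pairs switched their main acceptor in all 3 libraries against all 3, each towards upstream. Over all 3433 alternative 3′ events 34 switched towards upstream and 1 the other way. The count of calls was less stable than in sacy-1: with 1 library left out it fell to between 5 and 15, lowest without N2 az04 library 2 or 3, while in sacy-1 it was 101 to 116.

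After A3.00306, the largest called mog-5 change was at A3.01715 on chromosome III, plus strand, acceptors 11691193 and 11691202. Use there was 38.6%, 47.2% and 47.1% in N2 az04 against 88.9%, 94.6% and 83.6% in mog-5, and 31.8%, 39.3% and 40.7% in N2 az02. The sacy-1 libraries gave 96.0% and 94.4%, and the remaining one was at the top of the scale. The upstream acceptor was thus a minor or equal one in wild type, the main one in mog-5 and nearly the only one in sacy-1. The changes were 44.7 points in mog-5 (limma adjusted p = 0.0177) and 59.5 in sacy-1 (adjusted p = 0.000765).

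A3.00138 on chromosome I, minus strand, acceptors 4697199 and 4697190, was the most even of the named pairs in mog-5. The N2 az04 libraries stood at 6.18%, 3.76% and 3.69% and those of mog-5 at 34.1%, 33.4% and 34.1%. The N2 az02 libraries stood at 3.32%, 4.84% and 3.16% and those of sacy-1 at 57.8%, 52.5% and 55.3%. The N2 sets overlapped, and each mutant's libraries were tightly placed above them, by 29.3 points in mog-5 (limma adjusted p = 0.000911) and 51.4 in sacy-1 (adjusted p = 0.000324).

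The other named mog-5 pairs were A3.03359 (40.7 points, X), A3.00280 (38.4, I), A3.01058, A3.02927 (32.0, V), A3.03447 (30.4, X), A3.00035 (28.8, I) and A3.01958 (27.3, IV). Of the 10 named, the calls at A3.00306 and A3.00138 were kept under every alternative tried. The other 8 lost their call without 1 or more of the libraries, and A3.01058, A3.01715, A3.03359, A3.00035 and A3.01958 without at least 5 of the 6 in turn, although their differences stayed at 25.2 to 47.5 points with any library left out. In sacy-1 the 10 named calls held with each library left out.

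Called in both mutants were 26 pairs, which is 92.9% of the 28 called in mog-5 and 19.8% of the 131 called in sacy-1. Of the 131, 129 also had a mog-5 difference above 0, and the median mog-5 difference of the 131 was 12.3 points. Most events leaned this way in mog-5: 488 of all 570 pairs tested and 2595 of all 3433 alternative 3′ events had a difference above 0. Across the 559 pairs the sacy-1 and mog-5 differences, taken against separate N2 libraries, had a Pearson r of 0.69 and a Spearman rho of 0.66. These points share the 12 libraries and are not replicates. Calls in both mutants and correlations were not counted over all events, so the values here cannot be set against a background.

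The 2 pairs called in mog-5 alone are named here after their values were seen. A3.01458 (III) had 1 high N2 az02 library, at 66.7% against 14.3% and 12.5%, and sacy-1 at 38.5%, 36.4% and 25%. Its mog-5 libraries, at 39.4%, 43.8% and 34.6%, lay above the N2 az04 libraries, at 14.3%, 18.2% and 17.5%. A3.03379 (X) also stood higher in sacy-1, by 25 points, with a limma adjusted p of 0.12.

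The change was larger in sacy-1 than in mog-5 at 40 of 559 pairs by the test of the difference between both effects over all 12 libraries, and larger in mog-5 at 0. That is 7.16% of the pairs, against 1.43% of all 5019 events and 2.15% of all alternative 3′ events in the same direction, and 0.0299% of the latter in the other. At the 40 pairs the effects differed by 15.7 to 54.6 points. Their median change was 48.7 points in sacy-1 and 14.1 in mog-5. The subtraction of separate N2 sets enters this result: at 37 of the 40 N2 az04 was higher than N2 az02, by a median of 7.92 points. Compared directly with no N2 subtracted, 37 pairs were called, 36 of them higher in sacy-1, and 31 of the 40 were among the 37. The share of all events called in this direct comparison was not counted, so the 37 cannot be set against a background.

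A3.03481 on chromosome X, plus strand, acceptors 17600520 and 17600529 after an intron of 49 or 58 nt, had the smallest p of this test. The N2 az02 libraries gave 0.33%, 0.57% and 0.64% and those of sacy-1 43.5%, 42.1% and 47.2%. The N2 az04 libraries gave 0.47%, 0.33% and 0.21% and those of mog-5 3.58%, 2.98% and 3.62%. Both N2 sets were near 0 and overlapped, the mog-5 libraries were all slightly above them, and only the sacy-1 libraries used the upstream acceptor at a high share. The effects differed by 40.7 points (95% interval 37.3 to 44.1, limma adjusted p = 2.44e-06).

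A3.02931 on chromosome V, minus strand, acceptors 20239985 and 20239976, gave 1.64%, 3.74% and 2.06% in N2 az02 against 25.7%, 25.3% and 27.6% in sacy-1. The N2 az04 libraries gave 8.36%, 5.84% and 6.25%, against 10.4%, 10.4% and 10.1% in mog-5. The sacy-1 libraries were the highest of the 12, and both mutants stood clear of their N2 sets. Its effects differed by 20.2 points (limma adjusted p = 5.97e-05). A3.00044 on chromosome I, acceptors 1839057 and 1839066, was at 11.9%, 11.1% and 12.2% in sacy-1 and under 2% in the other 9 libraries. Its difference of 10.9 points (limma adjusted p = 3.66e-05) was below the 15 points required for a call.

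**Figure D4:**
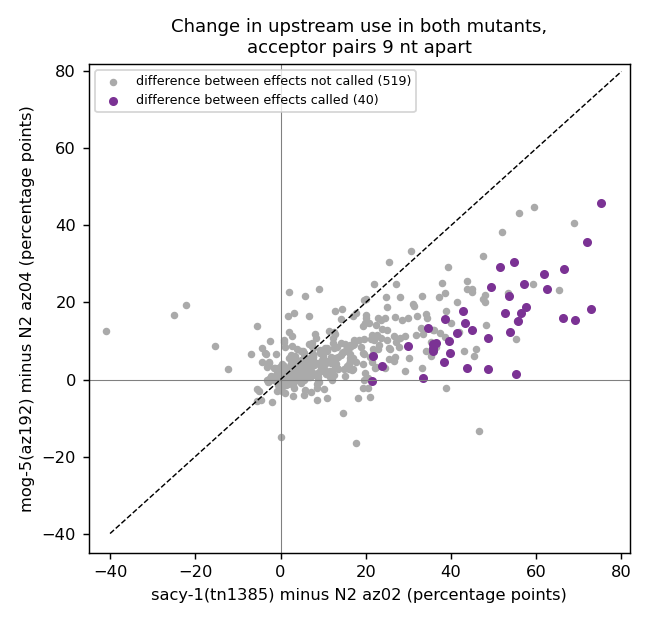
Change in upstream use in mog-5 (vertical axis, percentage points) against the change in sacy-1 (horizontal axis), each from its own N2 set, for the 559 pairs; the 40 purple points are those whose effects differed by test. Purple points lie below the dashed line of equal change, and A3.00306 is the point farthest to the right, at 75.2 and 45.8 points.

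No pair was called towards the downstream acceptor in either mutant. The pairs with the largest downward differences at an unadjusted p under 0.05 were few. In sacy-1 they were A3.02646 (V), at 77.1%, 70.6% and 80% in N2 az02 and 71.7%, 59.6% and 59.5% in the mutant (-12.3 points, limma adjusted p = 0.21), then A3.01383 (III, -5.6 points) and A3.01501 (III, -2.8 points). In mog-5 there was 1, A3.03013 (X), at 92.7%, 93.3% and 94.8% in N2 az04 and 90.3%, 84.5% and 88.2% in the mutant (-5.9 points, adjusted p = 0.201). Larger downward values, down to -41.0 points in sacy-1 and -52.3 in mog-5, were at pairs with an unadjusted p above 0.05. A3.01061 (II), named after its values were seen, had the -41.0 points from N2 az02 libraries that scattered from 28.6% to the top of the scale.

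Some pairs with balanced use in wild type showed little difference. A3.03159 on chromosome X gave 54.2%, 51.2% and 55.2% in N2 az02 against 50%, 50.8% and 60.9% in sacy-1, a difference of 0.4 points with a 95% interval of -8.5 to 9.3. A3.01300 on chromosome III gave 43.5%, 36.1% and 41.0% in N2 az04 against 42.6%, 37.6% and 40.6% in mog-5, a difference of 0.1 points with an interval of -6.4 to 6.5. Neither pair's groups separated. The same rule also picked A3.01549 and A3.02752 in sacy-1, where libraries of a group ran from the bottom to the top of the scale, so that their differences of 0.0 points say little. In mog-5 it picked A3.00183, with an interval of -16.9 to 17.0 points, and A3.00129, with 0.0 points in mog-5 but 19.6 in sacy-1, a sacy-1 call that 5 of the 6 left-out libraries removed. Its sacy-1 difference stayed at 16.2 to 21.4 points with a library left out, and was 4.62 points against N2 az04.

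Both short and long introns held calls, and no test of the difference between them was run. The upstream acceptor was called in sacy-1 at 67 of 281 pairs (23.8%) with a longer intron under 70 nt and at 64 of 281 (22.8%) with one of 70 nt or more. Mean use went from 23.4% ± 0.71 to 35.9% ± 0.59 over 279 short introns and from 22.1% ± 0.74 to 35.4% ± 0.69 over 280 long ones (SD, n = 3), which is 12.52 and 13.31 points. In mog-5 the calls were 15 of 282 (5.32%) and 13 of 288 (4.51%), with means going from 27.3% ± 1.60 to 33.3% ± 2.33 and from 25.6% ± 1.58 to 31.4% ± 2.17. Alternative 3′ events at all other distances had 8.61% called in either direction under 70 nt and 4.76% at 70 nt or more in sacy-1. Of these 74 sacy-1 calls at 70 nt or more, 3 were downstream. In mog-5 the shares at other distances were 1.73% and 1.01%.

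Finer bins held calls at every length. In sacy-1 the share was lowest, at 17.1%, in the 76 pairs up to 50 nt and highest, at 30.8%, in the 26 pairs of 61 to 69 nt, and it was 26.7% in the 116 pairs of 500 nt and more. It did not rise or fall steadily with length, and events at other distances were not split into these bins. On the chromosomes the called share in sacy-1 ranged from 19% on X to 27.8% on II, while other alternative 3′ events ranged from 5.5% on III to 7.9% on I, with 5.87% on X and 6.54% on II. The shares of other events count both directions, with 1 downstream call each on II, III and V. In mog-5 chromosome II had 1 call among 98 pairs (1.02%), against 1.23% of other alternative 3′ events there, although its mean difference, 6.71 points, was the highest of the 6 chromosomes.

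The called share varied with the level in wild type. Of pairs under 15% in N2 az02, 73 of 347 (21%) were called in sacy-1. Of those between 15% and 50%, 48 of 114 (42.1%) were called, of those over 50%, 10 of 101 (9.9%), and of the 49 over 85%, 0. Alternative 3′ events at other distances also had most calls at middle levels, with 6.93%, 16.2% and 1.21% in the same 3 ranges, so this pattern is not particular to pairs 9 nt apart. The 1.21% holds 8 upstream and 3 downstream calls. The N2 values enter both the level and the difference. In mog-5 the called counts by N2 az04 level were 4 of 289 (1.38%), 16 of 158 (10.1%) and 8 of 123 (6.5%), and 0 of the 51 over 85%. Events at other distances had 0.754%, 3.83% and 0.624%.

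Among distances of 3 to 18 nt, 9 nt had the highest share of calls in both mutants. In sacy-1 it was 23.3%, followed by 21% of 214 pairs 12 nt apart, 12.2% of 82 pairs 15 nt apart and 10.1% of 780 pairs 6 nt apart. The neighbouring distances, which shift the frame, had 3.16% of 190 pairs at 8 nt and 4.69% of 128 at 10 nt, and 7 nt had 5.96% of 285. Not every distance that keeps the frame had a high share: 3 nt had 2 calls in 231 pairs (0.866%) and 18 nt 2 in 41 (4.88%). Mean upstream use in N2 az02 was 71.8% at 3 nt and 45.9% at 18 nt, against 22.9% at 9 nt. It was 18.3% at 8 nt and 12.1% at 10 nt. The part of the wild-type level in the called shares was not tested. In mog-5 the shares were 4.91% at 9 nt, 3.74% at 12 nt, 2.92% at 6 nt and 0% at 3 nt. The distances of 18, 13, 15, 10, 8 and 7 nt had 1 call each. Their shares were 2.13%, 1.82%, 1.2%, 0.781%, 0.515% and 0.35%, in that order. Mean differences in sacy-1 were 12.89 points at 9 nt, 10.61 at 12 nt, 8.48 at 15 nt and 7.04 at 6 nt. At 10, 8 and 3 nt they were 3.97, 3.75 and 2.63 points. In mog-5 the means lay closer together, with 5.70 points at 9 nt, 5.51 at 15 nt, 4.86 at 12 nt and 4.39 at 6 nt. At 10, 8 and 3 nt the mog-5 means were 2.15, 2.63 and 0.89 points. The distances were compared by their counts alone, with no test of the difference between them.

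**Figure D5:**
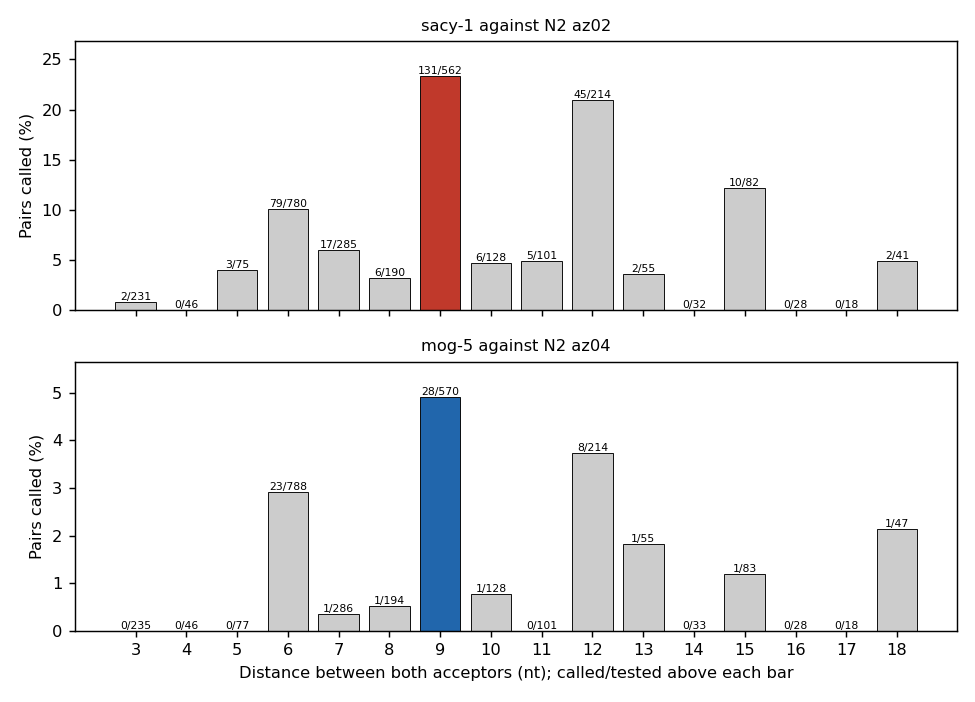
Share of acceptor pairs called (%) by the distance between the acceptors (3 to 18 nt) in sacy-1 against N2 az02 (top) and mog-5 against N2 az04 (bottom), with called and tested counts above each bar and the 9 nt bar coloured; the vertical scales differ. The 9 nt bar is the highest in both panels, at 23.3% and 4.91%, with 12 nt next at 21% and 3.74%.

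Most pairs were the only choice at their donor, but 58 shared the donor with further events. Of the 54 of these tested in sacy-1, 6 (11.1%) were called, against 125 of 508 (24.6%) without a further event, and in mog-5 the counts were 1 of 58 and 27 of 512. The median sacy-1 difference was 6.82 points with further events and 5.81 without, while the means were 10.15 and 13.18 points. Other alternative 3′ events were not split in this way. Each member with further events at its donor is measured against its partner acceptor only. At A3.02892 (V, acceptors 18101673 and 18101682) a further acceptor lies 3 nt before the upstream one. Use of 18101673 over 18101682 rose by 33.1 points in sacy-1, and use of that further acceptor over 18101682, an event of 12 nt, rose by 40.1 points, while the choice between the acceptors 3 nt apart differed by 1.12 points and was not called. This pair lies outside the naming rule. At A3.00265 (I), laid out alike, the 12 nt event rose by 35.7 points and was called, but the 9 nt pair rose by 3.38 and was not. At the other called members with further events, no further event was called in sacy-1.

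A set of 13 acceptor pairs was reached from more than 1 donor, which gave 27 members. In sacy-1 all members were called at 1 of the 13 pairs, some at 4 and none at 8. At 1 of those 4, A3.01847 and A3.01848 on chromosome IV, A3.01847 was not tested in sacy-1 and A3.01848 was called. The pair of A3.01715 was reached from 3 donors. From the donor 11688237 (A3.01714) its use rose from 35.0% ± 2.85 to 90.9% ± 1.68 in sacy-1 and from 35.8% ± 1.49 to 79.1% ± 1.12 in mog-5. From 11689728 (A3.01716) the sacy-1 values were 52.3% ± 9.25 and 91.6% ± 14.4, which was not called. In sacy-1 the upstream acceptor was thus used at over 90% on average from all 3 donors.

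Elsewhere the level differed between donors. On chromosome II, plus strand, the acceptors 167895 and 167904 were joined to 2 donors. From the donor 167079 (A3.00606) upstream use was 0.1%, 3.85% and 2.78% in N2 az02 against 58.6%, 64.1% and 51.2% in sacy-1, a change of 55.7 points (limma adjusted p = 0.00177). From the donor 167387 (A3.00607) it was 0.1% in all 3 N2 az02 libraries against 14.9%, 8.33% and 13.0% in sacy-1, a change of 12 points (adjusted p = 0.0209) that did not reach 15. All sacy-1 libraries were above all N2 az02 libraries from both donors, and the sacy-1 values from the donors did not overlap; that difference was not tested. On chromosome III, minus strand, the acceptors 4925710 and 4925701 were called from both donors, by 65.3 points at A3.01358 and 43.0 at A3.01361.

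Between the wild-type sets 0 of 564 pairs were called, by limma on percent or on the arcsine square root scale, against 0.0392% of all 5098 events and 0.0295% of alternative 3′ events. At an unadjusted p under 0.05, 109 pairs were higher in N2 az04 and 8 in N2 az02, against 14.1% and 1.89% of alternative 3′ events. All 3 N2 az04 libraries lay above all 3 N2 az02 libraries at 139 pairs (24.6%) and below at 12. Of all events 13.8% lay above, and of alternative 3′ events 17.9% lay above and 2.95% below. The mean difference was 3.70 points, which compares with 12.89 for sacy-1 and 5.70 for mog-5. With N2 az04 as the control, sacy-1 had 97 calls, 89 of them among the 131. With N2 az02 as the control, mog-5 had 54 calls, which held 24 of the 28. The shares of all events called with these exchanged controls were not counted. The part of the wild-type difference in each mutant's result was not tested.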

How the data were processed

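Each library's deposited files list splicing events of build ce10, per the file headers, with a score for the included and for the excluded form; the authors' scores of an event sum to 1000. The score of the upstream form was divided by 10 to give percent upstream use. Bowtie2, STAR and SAMtools are named in the submitters' processing notes, and their versions and the event caller are not given in the sources used here. Libraries listed 5201 to 5254 events of the intron catalogue; no read counts are given, so limma was run on percent in place of a test on reads, and depth and counting error are unknown. limma 3.58.1 (R 4.3.3) was fitted over every event listed in all 6 libraries (12 for the difference between effects), with Benjamini-Hochberg adjustment over all events and a call at adjusted p under 0.05 and 15 points. The script was tested on simulated data. Summaries used Python 3.11.15 with pandas 2.3.3, and figures matplotlib 3.10.9.

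N2 sets were matched to mutants by library numbers in the titles. The labels do not say that libraries are separate cultures, so p-values reflect only how far the libraries of a group spread, a spread that may be technical. The files hold splicing shares only, so neither the mutated genes nor tissue markers could be checked. Events carry no gene names in the files and are given by their identifiers; the gene tables at hand are of another build and were not used.

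Members and lists were chosen with earlier results of these data known. Named pairs, 1 per place, are the 10 largest called differences per mutant whose libraries do not overlap those of N2, the 5 largest called in both, the 3 smallest p of the difference between effects, the 3 most negative with unadjusted p under 0.05, and the 3 smallest differences at 30% to 70% N2 use. Alternatives covered scale, variance trend, joint fit, minimum difference, listing, scale ends, events tested together, controls and left-out libraries. Sequences are not shown here.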

Additional observations from a re-analysis of the deposited data

Results flagged for a closer look

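A set of 40 of the 559 pairs listed in every library had a change in sacy-1 that differed from the change in mog-5 by the limma test of the difference itself, and all 40 changed more in sacy-1. Without N2 az04 library 3 the count was 25.

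A3.03481 on chromosome X was singled out by the same test, since its upstream use was 43.8 points above N2 az02 in sacy-1 and 3.1 points above N2 az04 in mog-5, a difference of 40.7 points (adjusted p = 2.44e-06) that kept between 39.2 and 41.8 points with each of the 12 libraries left out. A3.02931 on chromosome V was singled out likewise, with 23.7 points in sacy-1 and 3.5 in mog-5, a difference of 20.2 points (adjusted p = 5.97e-05).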

How the results depend on the processing

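Of 130 alternative values for counts and means, 100 stayed within the limits set and 30 moved. The sacy-1 count of 131 stayed within 1.5 times under every alternative, with 101 to 116 when a library was left out. The mog-5 count of 28 was 45 with no minimum difference, 13 at 25 points, 54 against N2 az02, 51 against all 6 N2 libraries, and 5 to 15 with a library left out. The N2 set count of 0 was 0 to 1, and the count of 40 for the difference between effects 25 to 57, with a library left out. The sacy-1 difference in means, 12.92 points, was 17.08 with library medians in place of means, though the median change of a pair was 5.89 points. The difference in means was 17.66 without events at either end of the scale, and 9.21 against N2 az04. In short introns 12.52 became 15.82, 16.71 and 8.62, and in long introns 13.31 became 17.93, 18.75 and 9.79. The mog-5 difference of 5.87 was 8.52 by library medians, though the median change of a pair was 2.97 points, and 9.58 against N2 az02. In short introns 6.01 became 8.50 and 9.91. In long introns 5.74 became 7.98 without the ends of the scale and 9.26 against N2 az02. Of 1743 values for named pairs, 1651 kept direction and call, 76 lost a call, 15 gained one and 1 reversed: A3.02646 in mog-5 was -17.6 points against N2 az02 (limma adjusted p = 0.0381) and 2.7 against N2 az04. The causes were not tested. Leaving out each library for the means was chosen after seeing the data and gave 12.3 to 13.73 points over the sacy-1 sets and 4.5 to 6.93 over the mog-5 sets. No paired analysis was possible because the library numbers differ between groups and replicate numbers here only name libraries. Read depth, which is unknown, limits every single value.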

Other observations

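The wild-type sets differed less on the X chromosome than on the autosomes. At an unadjusted p under 0.05 (limma), 3 of 102 pairs on X were higher in N2 az04, with a mean difference of 0.77 points, against 106 of 462 on the autosomes, with 4.35 points. Alternative 3′ events at other distances gave 21 of 411 on X, mean 0.07 points, and 346 of 2410 on the autosomes, mean 2.28 points. The mutant changes on X did not stand apart in this way. Sacy-1 was called at 19 of 100 pairs there, with a mean of 11.67 points, and mog-5 at 6 of 104, with 5.70 points. The difference between chromosomes was noticed in the data and was not tested.

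At A3.01329 on chromosome III, minus strand, acceptors 4492737 and 4492728, the catalogue of annotated introns also measures retention of the intron against splicing at each acceptor. Upstream use was 47.8%, 48.1% and 47.5% in N2 az02 against 70.3%, 69.3% and 72.6% in sacy-1. Retention measured against the shorter intron was 13.4% ± 1.38 in N2 az02 against 9.3% ± 0.345 in sacy-1, and measured against the longer intron 32.6% ± 1.38 in N2 az02 against 46.8% ± 1.45 in sacy-1 (SD, n = 3). In mog-5 these were 9.13% ± 0.22 against the shorter and 43.0% ± 2.5 against the longer intron, with 11.4% ± 0.66 and 32.4% ± 0.291 in N2 az04. Each of these shares also moves when use of its own acceptor changes, so a change in retention itself cannot be read from them. The sources used here do not say how retention was counted. The levels against the shorter and the longer intron thus cannot be set against each other or against upstream use. The pair was chosen after its values were seen.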
